A study of Mus musculus with 2 samples.

Results

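A set of 9 complement genes was followed in mouse dorsal skin: C1qa, C1qb, C1qc, C1ra, C1s1, C3, C4b, C7 and Cfd. They were taken by symbol from the 32285 genes of the count tables, and each symbol matched a single row. The 9 were chosen with earlier results of these data known. Their counts are therefore set beside shares over all genes as a description and not as a test. The 2 groups compared, control and TP, were each a pool of the dorsal skin of 15 male C3H/HeN mice that gave 1 library, so that nothing separates the animals of a pool and a comparison of the groups is a comparison of 1 library with another. Mice entered the experiment at 7 weeks of age and were sampled at 9 weeks. The control group (Con) received vehicle, and the androgenetic alopecia (AGA) model received testosterone propionate (TP) at 0.5 mg per day under the shaved dorsal skin; the group given TP with a CXCL12 antibody is not analysed here. The measurement is droplet-based single-cell RNA sequencing of whole skin freed of red blood cells and debris, in which a unique molecular identifier (UMI) marks each captured transcript.

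After limits on genes and mitochondrial content and removal of doublets, 39076 control cells with 108036183 UMIs and 18542 TP cells with 138894603 UMIs remained, and the TP cells were deeper (median 5064.5 UMIs per cell against 2063). The kept cells of both libraries shared 183 barcodes. Levels are given as UMIs of a gene per 1000000 UMIs of the same cells (CPM), with 95% intervals in brackets that cover counting error only; they do not cover differences between animals, digestions or libraries, and no test across libraries was possible. Cells were clustered without the complement genes, and clusters were named by markers and written as "X-like". Macrophage-like cells made up 0.228% of control and 1.19% of TP cells (89 and 220 cells), and dermal fibroblast-like cells made up 0.320% and 2.80% (125 and 520 cells). The 9 macrophage markers (Cd68, Csf1r, Mrc1 and others) summed to 7936 CPM in control and 15514 CPM in TP in macrophage-like cells, against 166 and 242 CPM in keratinocyte-like cells. The 9 fibroblast markers (Col1a1, Dcn, Lum and others) summed to 75383 and 111930 CPM in fibroblast-like cells, against 155 and 209 CPM in keratinocyte-like cells. Since these markers gave the names, the sums describe the classes and do not test the names. Dermal papilla-like cells, the signalling mesenchyme at the base of the hair follicle, made up 9.82% and 6.89%. The macrophage-like class was not the same mixture in both libraries, and the levels of the C1q chains and C4b are given below with and without the subcluster concerned, while its detection shares and ratios between chains are for the whole class.

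Complement is a cascade of plasma and tissue proteins that tags and punctures targets. In the classical pathway the hexameric recognition protein C1q, built of the chains encoded by C1qa, C1qb and C1qc, binds a target and activates the proteases C1r and C1s, which cleave C4 and C2; the resulting enzyme cleaves C3, the central component, whose fragments coat the target, and C5 to C7 open the terminal membrane attack pathway. Factor D (Cfd, adipsin) is the protease of the alternative pathway and is best known as a product of fat cells. The liver supplies most circulating components, whereas C1q is made largely by macrophages and dendritic cells, and connective tissue cells make several of the others locally.

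In the RefSeq annotation of GRCm38.p6, the build of the files, the C1q chains are neighbours on chromosome 4: C1qb (ENSMUSG00000036905, chr4:136880126-136886200), C1qc (ENSMUSG00000036896, chr4:136889801-136892936) and C1qa (ENSMUSG00000036887, chr4:136895916-136898844). The protease genes are neighbours on chromosome 6, C1ra (ENSMUSG00000055172) at chr6:124512621-124523440 and C1s1 (ENSMUSG00000038521) at chr6:124530344-124542392. Both have a near-identical copy, C1rb and C1s2, and C4b (ENSMUSG00000073418, chr17:34728139-34743902) has the copy C4a, so that reads may be split or dropped between copies and their levels are uncertain to that extent; the copies held 127 control and 335 TP UMIs (C1rb), 158 and 319 (C1s2) and 116 and 95 (C4a). C3 (ENSMUSG00000024164) lies at chr17:57203967-57228136, C7 (ENSMUSG00000079105) at chr15:4987750-5063773 and Cfd (ENSMUSG00000061780) at chr10:79890853-79892655.

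RefSeq promoters were matched for 7 of the 9 genes. The 250 bases before the start are printed for 4 of them, since the C1q chains had their highest level in 1 cell class and C3 and C7 in another. All 4 lie on the minus strand of GRCm38.p6 and are written 5′ to 3′ towards the start: C1qb at chr4:136886201-136886450, C1qc at chr4:136892915-136893164, C3 at chr17:57228137-57228386 and C7 at chr15:5063774-5064023. The window of C1qc is counted from a transcript start that lies inside the gene span given above, and so overlaps its first bases. Capitals mark matches, on either strand, to the core GAGGAA of the macrophage factor PU.1, to TTNCNNAA for C/EBP factors, and to TATAAA.
C1qb: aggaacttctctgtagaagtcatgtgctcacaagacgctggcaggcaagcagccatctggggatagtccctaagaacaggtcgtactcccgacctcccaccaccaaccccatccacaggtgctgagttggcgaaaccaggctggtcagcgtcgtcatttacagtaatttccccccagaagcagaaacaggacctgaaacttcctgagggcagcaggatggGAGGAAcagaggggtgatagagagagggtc
C1qc: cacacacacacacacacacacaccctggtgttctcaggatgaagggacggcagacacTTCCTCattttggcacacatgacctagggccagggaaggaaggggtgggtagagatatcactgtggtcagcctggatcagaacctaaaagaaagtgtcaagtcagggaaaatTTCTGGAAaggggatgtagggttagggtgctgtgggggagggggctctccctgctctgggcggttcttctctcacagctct
C3: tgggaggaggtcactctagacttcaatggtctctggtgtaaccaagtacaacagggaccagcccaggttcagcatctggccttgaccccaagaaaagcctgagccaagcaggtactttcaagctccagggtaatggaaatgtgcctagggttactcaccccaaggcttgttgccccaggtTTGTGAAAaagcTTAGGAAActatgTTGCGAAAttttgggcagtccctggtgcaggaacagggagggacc
C7: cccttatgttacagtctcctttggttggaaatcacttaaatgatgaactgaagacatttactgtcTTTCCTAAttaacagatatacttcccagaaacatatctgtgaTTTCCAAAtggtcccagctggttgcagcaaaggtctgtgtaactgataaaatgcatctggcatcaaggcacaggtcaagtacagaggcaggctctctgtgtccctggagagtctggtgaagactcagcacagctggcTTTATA
C1qb and C1qc each held 1 match to GAGGAA, beginning 30 and 193 bases before the start, a motif found in 23.25% of the 32851 promoter windows of this length. C3 held 3 matches to TTNCNNAA within the last 70 bases, C7 held 2 and C1qc held 1, and 36.85% of all windows held at least 1. C7 had a match to TATAAA on the opposite strand, beginning 6 bases before the annotated start, and 12.37% of all windows held one. An interferon response motif and TGANTCA (AP-1) were searched as well and had no match in these 4 windows; they stood in 2.977% and 6.749% of all windows. These are matches of letters only.

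Each gene but Cfd had its highest level in macrophage-like or in dermal fibroblast-like cells, in both libraries. C1qa stood at 1943 CPM [1716, 2193] in the macrophage-like cells of the control library and at 5187 CPM [5050, 5327] in those of TP, C1qb at 1079 and 3213 CPM, and C1qc at 1212 and 2645 CPM. The dendritic and Langerhans-like cells followed in both, with 121 CPM for C1qa, 52.9 for C1qb and 55.1 for C1qc in TP (108 cells) and 193, 212 and 73.7 CPM in control, where the class had only 49 cells and is left out of the ranks. Few of these cells carried the UMIs: C1qa was detected, without thinning, in 8.16% of the control and 11.1% of the TP cells and C1qb in 4.08% and 7.41%, and the macrophage markers summed to 3215 and 6126 CPM in the class. No other class of at least 50 cells passed 3.89 CPM for any C1q chain in control. In TP the next values for C1qa, C1qb and C1qc were 21.2, 13.1 and 18.0 CPM in endothelial-like cells. Dermal sheath-like cells of TP had 12.3, 15.5 and 8.41 CPM. C4b, which encodes the component cleaved by C1s, was also highest in macrophage-like cells (377 CPM in control, 660 in TP), with fibroblast-like cells next (35.2 and 85.3 CPM). In fibroblast-like cells, C1ra stood at 246 and 195 CPM, C1s1 at 202 and 153 CPM, C3 at 550 and 938 CPM and C7 at 550 and 1137 CPM. For all 8 genes the interval of the first class lay above that of the second among classes of at least 50 cells.

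**Figure D1:**
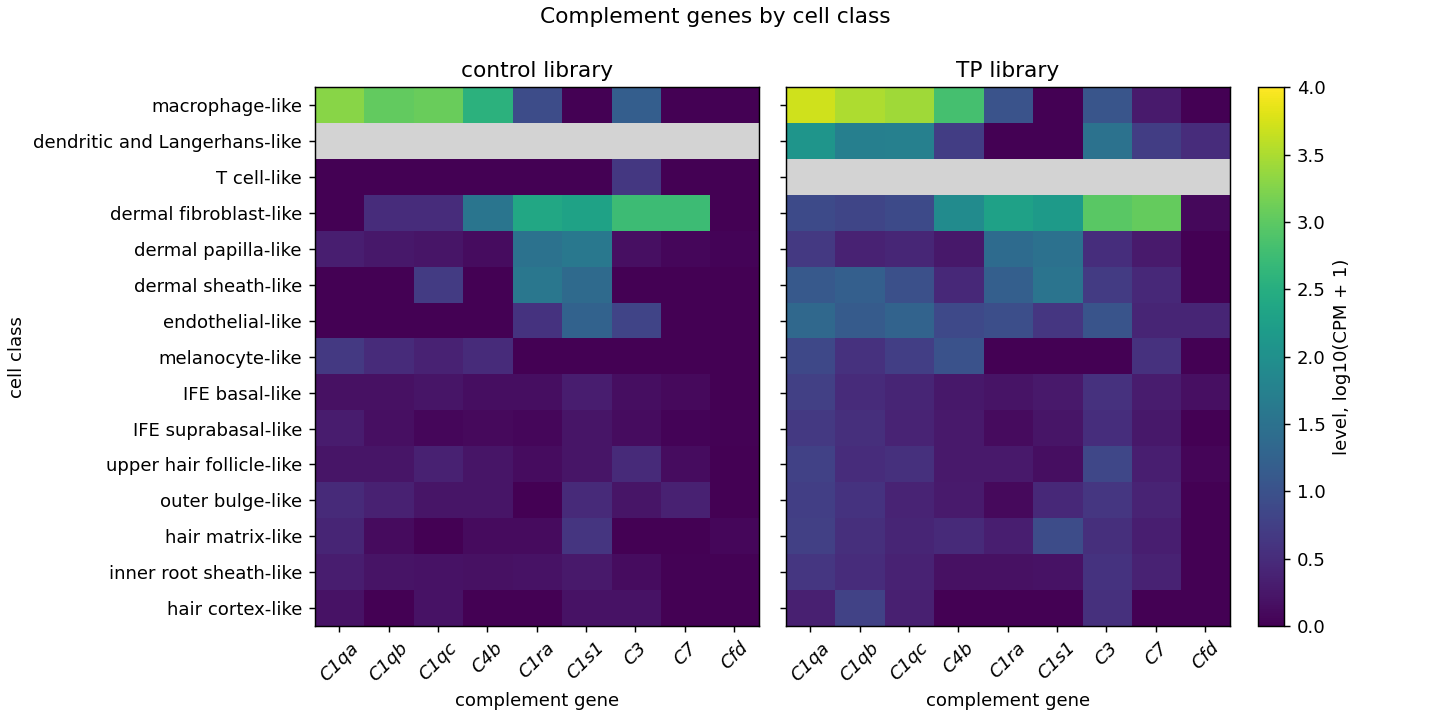
Level of each complement gene (columns) as log10(CPM + 1) in each cell class (rows), for the control library on the left and the TP library on the right; grey rows are classes with fewer than 50 cells in that library. C1qa, C1qb, C1qc and C4b are brightest in macrophage-like cells and C1ra, C1s1, C3 and C7 in dermal fibroblast-like cells. C4b in fibroblast-like cells is dimmer than C1qa in the dendritic and Langerhans-like cells of TP.

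The count of genes set apart by class was read against all genes. Of the 17581 genes with at least 50 UMIs, 4.77% were at least 4-fold above all other kept cells in macrophage-like cells of both libraries, against 4 of the 8 complement genes tested (the C1q chains and C4b; Cfd had too few UMIs). For fibroblast-like cells the figures were 4.99% and 5 of 8 (C1ra, C1s1, C3, C4b and C7), and for dermal papilla-like cells 6.45% and 0 of 8. C4b is therefore counted in both.

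The classes that held most of a gene's UMIs differed between libraries for the proteases. Dermal papilla-like cells held 65.9% of the C1ra UMIs and 64.4% of the C1s1 UMIs in control, where fibroblast-like cells held 20.7% and 13.4%. In TP the order was the opposite, with 74.1% and 59.7% in fibroblast-like and 16.1% and 20.7% in papilla-like cells. C3 and C7 came from fibroblast-like cells in both, with 78.6% and 89.9% of their UMIs in control and 91.2% and 97.1% in TP. Macrophage-like cells held 48.5% to 58.0% of the UMIs of the 3 C1q chains in control and 84.1% to 84.9% in TP. The unnamed cells of control held another 25.2% to 30.2%, of which a subcluster of 98 cells with T cell and macrophage genes side by side held 16.9% of all C1qa UMIs.

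**Figure D2:**
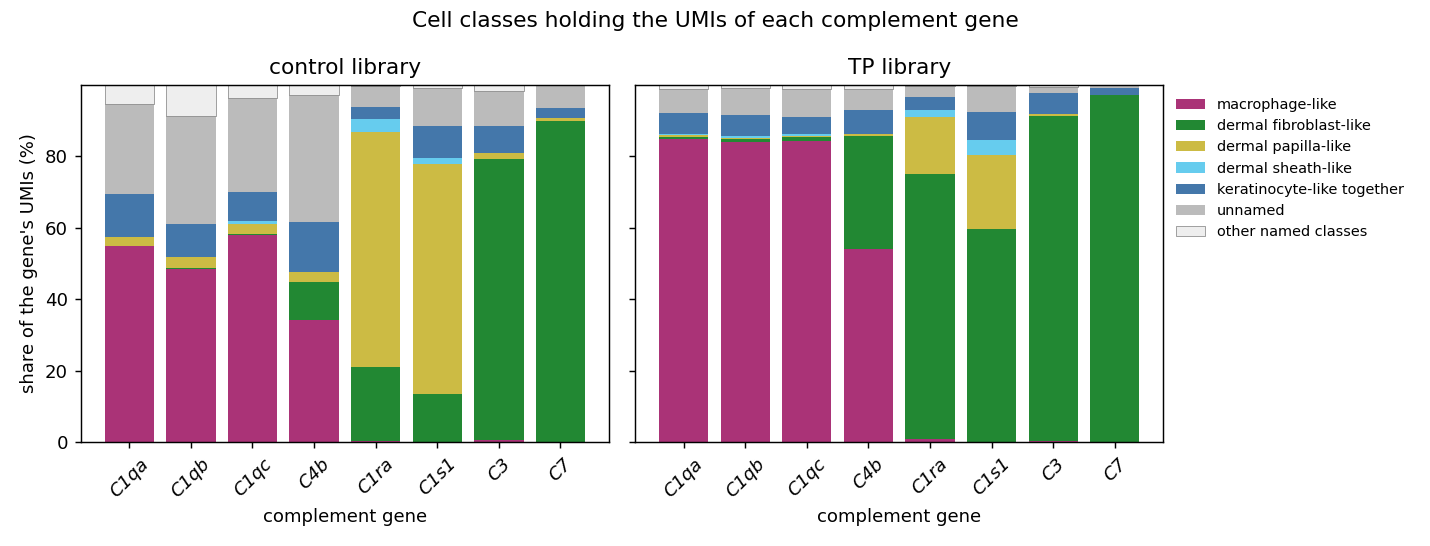
Share (%) of each gene's UMIs that lay in each cell class, stacked to 100%, for control on the left and TP on the right; Cfd is left out because it had 24 UMIs. Macrophage-like cells make up the largest part of the C1q bars, fibroblast-like cells that of C3 and C7, and the large dermal papilla-like part of C1ra and C1s1 in control is smaller in TP.

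Next, the level over all kept cells was compared between TP and control. C1qa stood at 4.44 and 46.1 CPM (control first), a ratio of 10.4 [9.45, 11.4], C1qb at 2.79 and 28.8 CPM and C1qc at 2.62 and 23.6 CPM. C3 stood at 2.94 and 34.8 CPM (ratio 11.8 [10.6, 13.3]) and C7 at 2.57 and 39.6 CPM (ratio 15.4 [13.7, 17.4]). Thus the recognition chains, the central component and 1 terminal component were each at least 9 times as abundant per UMI in the TP library. C4b was 6.66 times as high (1.38 and 9.19 CPM), while the proteases differed less, with ratios of 1.78 [1.61, 1.98] for C1ra and 1.36 [1.24, 1.499] for C1s1. With a log2 difference of at least 1 after adding 10 CPM, which shrinks ratios of low genes, 5 of the 8 tested genes were higher in TP (C1qa, C1qb, C1qc, C3 and C7) and 0 were lower, against 1.72% of all genes tested being higher and 0.796% lower. With TMM scaling, which moved the median log2 difference of all genes from -0.06 to 0.00, the 303 higher and 140 lower of all genes became 454 and 61. Without the barcodes found in both libraries the ratios were close to those above, 10.4 for C1qa, 11.7 for C3 and 15.3 for C7.

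The cell classes that held these genes made up more of the TP library. The share of macrophage-like cells was 5.21 times as high [4.05, 6.74] and that of fibroblast-like cells 8.77 times [7.20, 10.7], and whether the skin or only the recovered cells differed in this way cannot be told apart in these 2 libraries. These ratios depend on how the classes are drawn: without the shallow subcluster I5 described below (14 and 199 cells left) that of macrophage-like cells was 29.96 [17.4, 55.8], and with classes from single-cell markers they were 11.04 for macrophage-like cells (42 and 220) and 4.50 for fibroblast-like cells (269 and 574). With the UMI shares of the control classes applied to both libraries, the ratios came to 3.63 for C1qa, 2.40 for C3, 2.42 for C7 and 2.21 for C4b, none of the 8 genes passed the limit, and the proteases turned to 0.865 (C1ra) and 0.966 (C1s1). The unnamed cells entered as 1 class, in which C1qa stood at 3.14 CPM in control and 19.6 CPM in TP. Their make-up differed as well, with 98 control and 18 TP cells in the subcluster of mixed T cell and macrophage genes. These ratios therefore do not hold the composition of the cells fully constant.

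**Figure D3:**
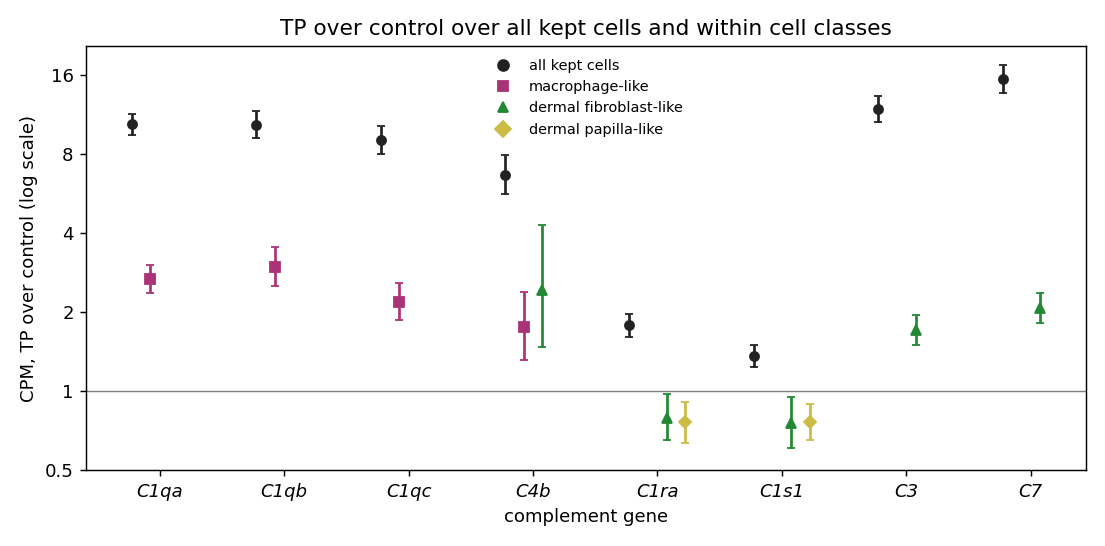
CPM in TP over control on a log scale for each complement gene, over all kept cells (circles) and within macrophage-like (squares), dermal fibroblast-like (triangles) and dermal papilla-like cells (diamonds) where both libraries together held at least 50 UMIs; bars are exact 95% counting intervals and the line marks 1. The circles lie above every within-class value of the same gene, and C1ra and C1s1 lie above 1 over all cells and below 1 within classes.

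Within macrophage-like cells the C1q chains were higher in the TP library, and so was the sum of the 9 macrophage markers (7936 and 15514 CPM). The ratio was 2.67 [2.36, 3.03] for C1qa, 2.98 [2.52, 3.54] for C1qb and 2.18 [1.86, 2.57] for C1qc, and 1.75 [1.32, 2.38] for C4b. Of the 4 complement genes tested in this class, 3 passed the limit for higher and 0 for lower, against 8.66% and 5.14% of all 4109 genes tested; with TMM scaling, which moved the median log2 difference of all genes from -0.07 to 0.31, the 356 higher and 211 lower of all genes became 726 and 60. The other 5 were not tested there, having under 50 UMIs. The 50 UMIs were counted over both libraries together, and this class held 135330 UMIs in control and 1047194 in TP. Genes higher in TP therefore passed this limit more readily, which tilts the counts towards higher, also among all genes. After each cell was thinned to 1000 UMIs, C1qa was detected in 27 of 53 control cells (50.9% [36.8, 64.9]) and in 185 of 202 TP cells (91.6% [86.9, 95.0]), with 36 control and 18 TP cells too shallow to be thinned; without thinning the shares were 40.4% and 90.9%. All 3 chains together were found in 24.5% of the thinned control cells and 74.8% of the thinned TP cells. In inner root sheath-like cells, hair follicle cells that should lack C1q, C1qa was detected in 0.180% and 0.272% of thinned cells (median depth before thinning 2069.5 and 4953.5 UMIs), far below the macrophage-like values.

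The subclusters of this class were not shared evenly between the libraries. Macrophage-like cells fell into 3 subclusters, called I2, I5 and I6 here. I2 and I6 had F13a1, Ccl8, Mrc1, Pf4 and Folr2 among their leading genes, which are genes of resident dermal macrophages, whereas I5 was shallow and had Ddx60, F13a1 and Hdac9 as its leading genes. Of the 89 control cells, 75 were in I5 and 14 in I2, while of the 220 TP cells 117 were in I2, 82 in I6 and 21 in I5; I6 held no control cell. In I2, C1qa stood at 5042 CPM [4409, 5740] in the control cells and 5004 CPM [4821, 5191] in the TP cells, a ratio of 0.992 [0.867, 1.14]. C1qb stood at 2698 and 3038 CPM (ratio 1.13 [0.937, 1.36]), C1qc at 3029 and 2556 CPM (ratio 0.844 [0.708, 1.01]) and C4b at 641 and 674 CPM (ratio 1.05 [0.720, 1.59]). The 4 intervals include 1, so that a difference within I2 was not detectable at the depth of 14 control cells with 45223 UMIs. In the TP-only subcluster I6, C1qa stood at 5603 CPM, C1qb at 3550, C1qc at 2852 and C4b at 661 CPM.

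In I5, C1qa stood at 388 CPM [271, 540] in the control cells and, from 4 UMIs, at 225 CPM [61.2, 575] in the TP cells. I5 cells had a median of 1031 UMIs in control and 688 in TP, and the 9 macrophage markers summed to 3685 and 2358 CPM there against 16408 and 14497 CPM in I2; Adgre1 and Fcgr1 were at 0 in the I5 cells of TP. The dendritic and Langerhans markers summed to 1243 and 4324 CPM in I5, so that in its 21 TP cells they exceeded the macrophage markers and went against the name. The mitochondrial share of UMIs was 3.52% and 5.41% in I5 and 2.12% and 2.14% in I2. The part of depth and RNA quality in the low C1q level of I5 was not tested. Without I5 the ratios were 1.05 for C1qa, 1.21 for C1qb, 0.888 for C1qc and 1.04 for C4b, and none of the 4 genes passed the limit. When the class was taken instead from the markers of single cells (42 control and 220 TP cells), the ratios were 1.65, 1.67, 1.36 and 1.24 in the same order, again with none past the limit; with the mixed T cell and macrophage subcluster added they were 7.13, 7.58, 5.93 and 3.81. That mixed subcluster added 373826 UMIs to control and 150480 to TP. Its macrophage markers summed to 1161 CPM in control and 8141 CPM in TP, and its T cell markers to 1065 and 392 CPM.

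**Figure D4:**
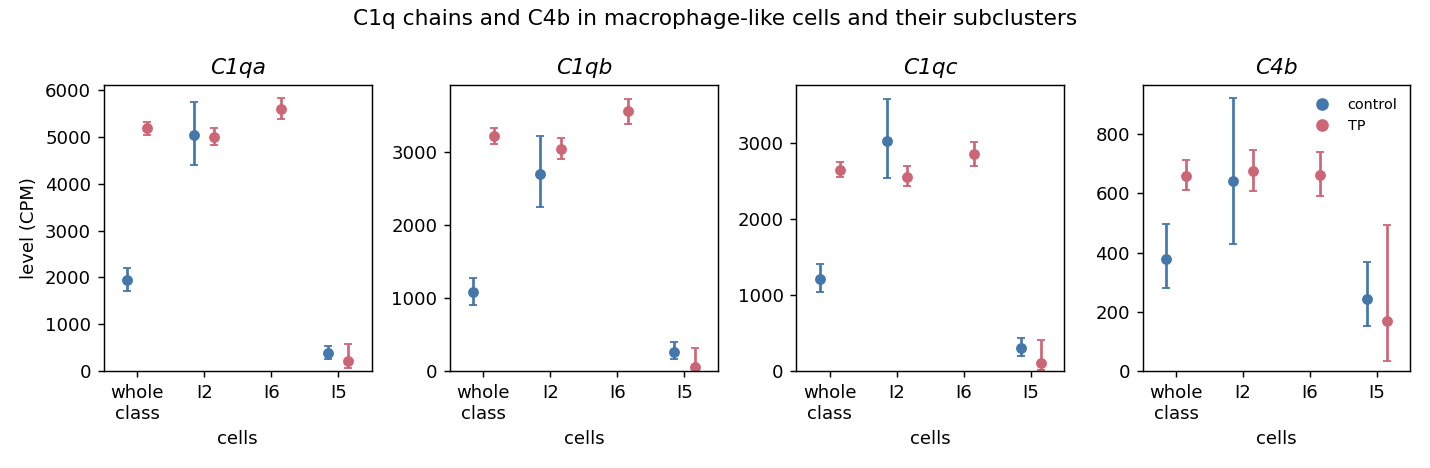
Level (CPM) of C1qa, C1qb, C1qc and C4b in all macrophage-like cells and in subclusters I2, I6 and I5, in control (blue) and TP (red), with exact 95% Poisson intervals; I6 held TP cells only. In the whole class TP lies above control for each gene, whereas in I2 the intervals of both libraries overlap and I5 is low in both.

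The 3 chains kept a similar ratio to each other. In macrophage-like cells C1qb had 0.555 [0.450, 0.682] UMIs per C1qa UMI in control and 0.619 [0.593, 0.647] in TP, and C1qc had 0.624 [0.510, 0.761] and 0.510 [0.487, 0.534]. In keratinocyte-like cells, where C1qa was at 1.04 and 3.90 CPM, the C1qb ratio was 0.491 [0.301, 0.785] and 0.612 [0.519, 0.722], overlapping that of macrophage-like cells in each library. The C1qc ratio there was 0.404 [0.237, 0.665] and 0.406 [0.335, 0.490], the latter at the lower edge of the macrophage-like value. Each class of keratinocyte-like cells in TP held C1qa at a low level, from 1.27 CPM (1 UMI) in hair cortex-like to 4.97 CPM in upper hair follicle-like cells, and whether this is free RNA was not tested.

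In dermal fibroblast-like cells C3 and C7 were higher in TP and the proteases were not; the 9 fibroblast markers summed to 75383 and 111930 CPM. C3 stood at 550 and 938 CPM (ratio 1.71 [1.501, 1.94]), C7 at 550 and 1137 CPM (2.07 [1.82, 2.36]) and C4b at 35.2 and 85.3 CPM (2.42 [1.47, 4.28]), the control value of C4b resting on 16 UMIs. C1ra stood at 246 and 195 CPM (0.792 [0.650, 0.972]) and C1s1 at 202 and 153 CPM (0.754 [0.606, 0.947]), a direction that turned for C1ra with TMM scaling (1.01, and 0.964 for C1s1) and for both with the class from single-cell markers (1.195 and 1.22) or the mean of ln values (1.11 and 1.09). Of 5 genes tested in this class, 2 passed the limit for higher (C4b and C7) and 0 for lower, against 1.71% and 2.92% of 8841 genes. With the class taken from single-cell markers, C3, C7 and C4b had ratios of 3.03, 3.96 and 6.12 and all 3 passed. The share of all genes past the limit is not given for the class drawn in that way, so this count has nothing beside it. With TMM scaling the 151 higher and 258 lower of all genes became 338 and 108, with a shift of the median from -0.16 to 0.12. The C1q chains had no more than 1 UMI each in the control fibroblast-like cells and 27 to 32 in those of TP, at 5.75 to 6.81 CPM, and all macrophage markers together summed to 176 and 188 CPM there.

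Thinned to 1000 UMIs, C7 was detected in 33.1% [24.9, 42.1] of 124 control and 48.8% [44.5, 53.2] of 520 TP fibroblast-like cells, and C3 in 23.4% [16.3, 31.8] and 39.6% [35.4, 44.0]. C1ra was detected in 19.4% and 19.0% and C1s1 in 15.3% and 15.4%, shares that hardly differed. Unthinned, the shares were 54.4% and 77.7% for C7, 37.6% and 61.0% for C3, 44.8% and 64.4% for C1ra, and 40.0% and 57.7% for C1s1. Inner root sheath-like cells had C7 in 0.01796% and 0.272% and C3 in 0.0539% and 0.272% of thinned cells. C3 and C7 were found together in 8.06% of control and 24.8% of TP cells, and neither was found in 51.6% and 36.3%.

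The fibroblast-like cells were not alike, and their 5 subclusters are called F1 to F5. F1 (42 control and 217 TP cells) and F2 (34 and 85) were both led by the collagen genes Col1a1 and Col1a2, with Dpt and Hpgd in F1 and Igfbp2 and Mmp3 in F2, F3 (22 and 93) by Agt, Sult1e1 and Clec3b, F4 (22 and 67) by Sfrp4, Ogn and Pi16, and F5 (5 and 58) by Pi16, Ebf2 and Gfpt2. In TP, C3 was highest in F3 (2349 CPM [2241, 2462]) and F5 (2237 CPM [2093, 2387]), whose intervals overlap, followed by F4 (918 CPM), F1 (532 CPM) and F2 (107 CPM). C7 was highest in F3 (2711 CPM [2595, 2832]), with F1 (1078 CPM) and F4 (1016 CPM) not apart by their intervals, then F5 (724 CPM) and F2 (186 CPM). C4b too was highest in F3 (280 CPM), and the next value was 91.1 CPM in F5. C1ra ranged from 48.9 CPM in F2 to 330 CPM in F4, and C1s1 from 32.6 CPM in F2 to 279 CPM in F4, with F3 close to F4 for both (321 and 271 CPM). F2 was thus the lowest subcluster for all 5 genes in TP, although it expressed fibroblast markers at 154650 CPM in sum, the highest of the 5.

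The difference between libraries was not the same in each subcluster. C3 was higher in TP in F3 (847 and 2349 CPM, ratio 2.77 [2.14, 3.65]) and F4 (179 and 918 CPM, 5.14 [3.04, 9.47]), and lower in F1 (786 and 532 CPM, 0.676 [0.562, 0.820]) and F2 (286 and 107 CPM, 0.375 [0.254, 0.562]). C7 was higher in F1 (566 and 1078 CPM, 1.91 [1.54, 2.38]), F3 (1059 and 2711 CPM, 2.56 [2.03, 3.27]) and F4 (281 and 1016 CPM, 3.62 [2.37, 5.82]), and lower in F2 (444 and 186 CPM, 0.419 [0.309, 0.575]). The 9 fibroblast markers summed to 54473 CPM in control and 154650 in TP in F2, and to 98548 and 130520 in F1, 90080 and 84560 in F3 and 58295 and 65823 in F4, and their part in these differences was not tested. The control values rest on 22 to 42 cells each, and the spread between cells is not in these intervals. In F5, with 5 control cells, C3 stood at 971 and 2237 CPM. With the subcluster shares of control applied to both libraries, the class ratio was 1.47 for C3 and 1.91 for C7.

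**Figure D5:**
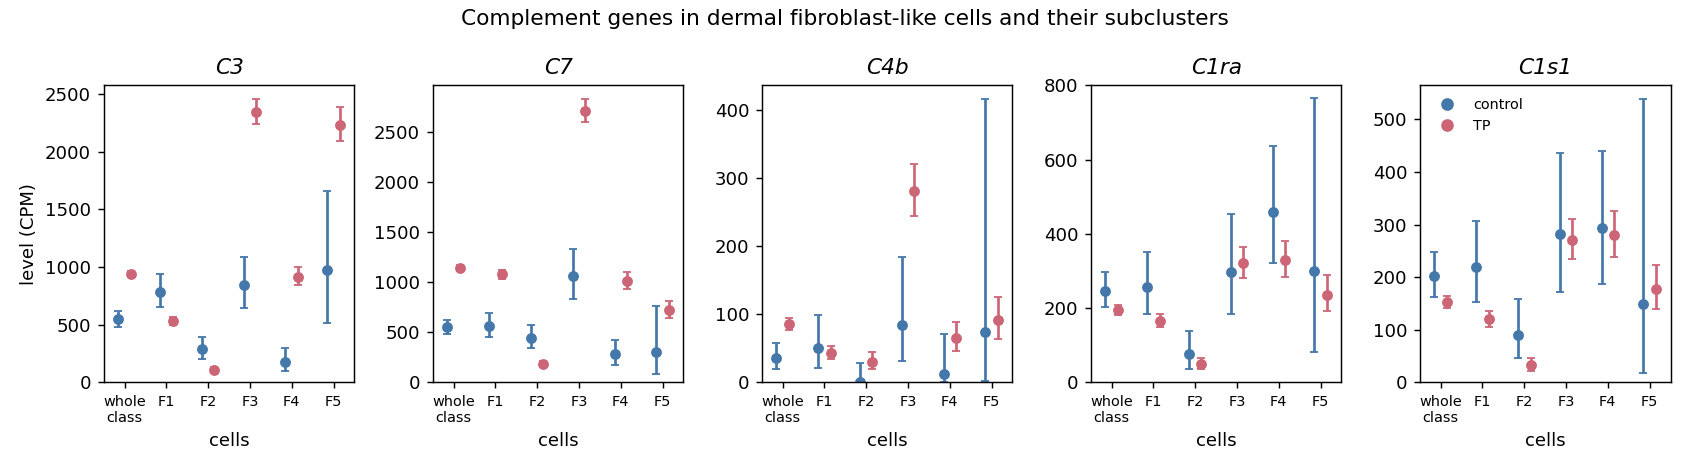
Level (CPM) of C3, C7, C4b, C1ra and C1s1 in all dermal fibroblast-like cells and in subclusters F1 to F5, in control (blue) and TP (red), with exact 95% Poisson intervals. C3 is far above control in F3 and F4 but below it in F1 and F2, C7 peaks in F3 of TP, and the intervals of C1ra and C1s1 overlap between libraries in F3, F4 and F5.

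The C1r and C1s proteases were also present, at a lower level, in the mesenchymal cells of the hair follicle. In dermal papilla-like cells C1ra stood at 31.3 CPM [28.1, 34.7] in control and 23.8 CPM [20.6, 27.3] in TP (ratio 0.761 [0.636, 0.907]) and C1s1 at 38.8 and 29.7 CPM (0.766 [0.654, 0.897]). None of the other 7 genes passed 3.58 CPM in these cells in either library, and the 7 papilla markers summed to 10394 and 8868 CPM. The papilla-like cells formed 2 clusters, 1 with Vcan, Sostdc1 and Edn3 among its leading genes (the Vcan cluster, 1722 control and 1012 TP cells) and 1 led by Ndnf, Rspo4 and Spon1 (the Ndnf cluster, 2116 and 266 cells). C1ra was lower in TP in the first (40.9 and 21.8 CPM, ratio 0.532 [0.433, 0.652]) and higher in the second (19.6 and 35.6 CPM, 1.82 [1.24, 2.62]). C1s1 was lower in TP in the first (44.2 and 27.2 CPM, 0.616 [0.510, 0.743]) and at 32.3 and 44.7 CPM in the second (1.38 [0.997, 1.89]). In dermal sheath-like cells C1ra stood at 36.9 and 15.5 CPM (0.420 [0.221, 0.811]) and C1s1 at 23.3 and 33.6 CPM (1.44 [0.759, 2.97]), from 12 to 52 UMIs each.

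The 2 proteases were not always in the same proportion. C1s1 had 0.821 [0.617, 1.09] UMIs per C1ra UMI in the fibroblast-like cells of control and 0.782 [0.708, 0.863] in those of TP, and 1.24 [1.08, 1.43] and 1.25 [1.03, 1.52] in dermal papilla-like cells. In hair matrix-like cells C1s1 was found with little C1ra, 20 UMIs against 2 in control and 19 against 3 in TP, which gives C1s1 levels of 3.17 and 7.61 CPM. A cluster of 40 control and 93 TP cells led by the contractile genes Myh11, Tagln and Acta2 had C1s1 at 120 and 118 CPM and C1ra at 34.2 and 39.3 CPM.

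C3 in keratinocyte-like cells was low, and its proportion to C7 differed from that of the whole fibroblast-like class. C3 stood at 0.438 CPM [0.280, 0.651] in control and 2.85 CPM [2.53, 3.20] in TP. In TP there were 2.92 [2.31, 3.71] C3 UMIs per C7 UMI in keratinocyte-like cells against 0.825 [0.792, 0.859] in fibroblast-like cells, and in control there were 24 UMIs against 8, and 250 against 250. Inner root sheath-like cells of TP had 2.07 [1.06, 4.24], from 29 and 14 UMIs. Among the fibroblast subclusters of TP, C3 stood above C7 in F5 only. Whether the C3 of keratinocyte-like cells is free RNA was not tested. The highest keratinocyte value was that of upper hair follicle-like cells in TP, with 6.12 CPM [4.51, 8.12] from 48 UMIs, above the 2.85 CPM [1.91, 4.09] of inner root sheath-like cells.

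Cfd was all but absent. Its 7 UMIs in control and 17 in TP correspond to 0.0648 CPM [0.0261, 0.134] and 0.122 CPM [0.0713, 0.196], a ratio of 1.89 with an interval from 0.745 to 5.39, and no class stood out. In fibroblast-like cells it was detected in 0 of 124 thinned control cells, which allows a share of thinned cells with a UMI of up to 2.42% (3 counts) and sets no limit on expression, and in 1 of 520 TP cells. The adipocyte markers Adipoq, Plin1, Cidec, Lep, Plin4 and Car3 together reached 0.944 CPM in control and 1.52 CPM in TP over all kept cells, and Lep was at 0 in TP. The level of these markers, which mark the main known source of Cfd, was thus near 0 in both libraries, and its part in the low Cfd count was not tested.

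The genes with the most similar pattern over 28 class values (classes of at least 50 cells in either library, log2 of CPM plus 1) are given as a description; the points share libraries and depth. For C1qa they were C1qb (r = 0.976), Folr2 (0.971) and Clec10a (0.970), for C1qb they were C1qa, C1qc (0.974) and Folr2 (0.970), and for C1qc they were C1qb, Folr2 (0.963) and Wfdc17 (0.962). C4b was most like Ccl8 (0.921), C6 (0.911) and F13a1 (0.903). C1ra was most like its copy C1rb (0.949), Meg3 (0.932) and Scara5 (0.925), and C1s1 most like Cd248 (0.943), Col5a1 (0.940) and Emx2os (0.932). C3 was most like Ifi205 (0.912), Lum (0.886) and Tent5c (0.8799), and C7 most like Sult1e1 (0.967), Gabra3 (0.965) and Rbp4 (0.953). Sult1e1 is also among the leading genes of F3, the subcluster with the most C7.

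Of the 54 genes of the wider complement list, which includes the 9, 39 had at least 50 UMIs over all kept cells. Of these, 6 were higher in TP by the limit (the C1q chains, C3, C7 and the decay-accelerating regulator Cd55) and 1 was lower (Masp1), against 1.72% and 0.796% of all genes tested, and their median log2 difference was 0.18, against -0.06 for all genes. Outside the 9 genes followed, only Cd55 was higher and only Masp1 lower, so that the wider list added little to the count of the 9. By group, 3 of 8 genes of the C1 complex and its copies, 1 of 4 early components, 1 of 4 tested terminal components and 1 of 11 tested regulators were higher, and 0 of 2 tested alternative pathway genes and 0 of 6 tested receptors passed in either direction. The 10 CPM added before the limit holds back genes as low as these, and their ratios were well above 1 for some: Cfb stood at 1.42 and 6.97 CPM (ratio 4.92 [4.15, 5.88]), Cfp at 4.04 and 8.61 CPM (2.13 [1.91, 2.39]) and Itgam at 1.13 and 4.52 CPM (4.004 [3.29, 4.90]).

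Masp1, a protease of the lectin pathway, was highest in dermal papilla-like cells, at 474 and 183 CPM (ratio 0.387 [0.366, 0.410]), with 509 and 145 CPM in the Vcan cluster (0.286 [0.266, 0.307]) and 431 and 409 CPM in the Ndnf one (0.948 [0.858, 1.05]). Serping1, the inhibitor of C1r and C1s, was highest in fibroblast-like cells at 1908 and 1823 CPM (0.956 [0.891, 1.03]) and stood at 298 and 169 CPM in dermal papilla-like cells (0.568 [0.533, 0.604]), with 403 and 164 CPM in the Vcan cluster (0.408 [0.381, 0.438]) and 172 and 198 CPM in the Ndnf one (1.15 [0.997, 1.33]). Of the complement genes followed, 2 were tested in dermal papilla-like cells (C1ra and C1s1) and 0 passed the limit in either direction, against 1.58% of all genes being higher and 1.77% lower. With TMM scaling the 202 higher and 227 lower of all genes became 240 and 179.

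In macrophage-like cells 7 of 17 tested list genes were higher in TP and 0 lower, against 8.66% and 5.14% of all genes tested there: the C1q chains, the complement receptors Vsig4 and Itgb2, factor B (Cfb, 66.5 and 177 CPM) and properdin (Cfp, 251 and 610 CPM), the last pair being the alternative pathway enzyme and its stabiliser. In I2 alone Cfb stood at 155 and 187 CPM (1.21 [0.567, 3.08]) and Cfp at 553 and 602 CPM (1.09 [0.725, 1.71]), so that, like the C1q chains, neither differed beyond counting error there. C6, the terminal component that precedes C7, was at 266 and 345 CPM in macrophage-like cells (1.30 [0.919, 1.88]) and at 442 and 346 CPM in I2 alone (0.782 [0.493, 1.31]). In fibroblast-like cells C6 stood at 19.8 and 47.2 CPM (2.39 [1.23, 5.29]), the control value resting on 9 UMIs. Over all kept cells it stood at 0.685 and 4.61 CPM (6.73 [5.28, 8.68]). Colec12, a scavenger receptor with a collectin domain, was present in macrophage-like (894 and 1238 CPM), dermal sheath-like (424 and 310 CPM), fibroblast-like (165 and 196 CPM) and dermal papilla-like cells (195 and 166 CPM), and Itgam, a chain of complement receptor type 3, in macrophage-like cells at 229 and 238 CPM. In I2 alone the ratio was 1.24 [0.927, 1.69] for Colec12 and 0.858 [0.475, 1.70] for Itgam; Vsig4 and Itgb2 were not split by subcluster.

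Membrane regulators and clusterin were found in keratinocyte-like cells. Cd55 stood at 125 and 189 CPM in interfollicular epidermis (IFE) basal-like (ratio 1.51 [1.41, 1.63]) and 117 and 122 CPM in IFE suprabasal-like cells (1.04 [0.993, 1.09]), at 161 and 283 CPM in fibroblast-like cells (1.76 [1.39, 2.27]), and at 40.3 and 91.2 CPM over all cells. Clu, which encodes clusterin, an inhibitor of the terminal complex, stood at 82.6 and 127 CPM in IFE suprabasal-like cells (1.54 [1.46, 1.63]). Cr1l (Crry), the rodent membrane regulator of C3, was found in all classes, at 71.6 and 67.3 CPM in keratinocyte-like and 73.9 and 74.9 CPM in dermal papilla-like cells, with the highest control value in endothelial-like cells (148 CPM) and the highest TP value in macrophage-like cells (116.5 CPM). C2, the partner of C4b in the convertase, was at 143 and 96.2 CPM in fibroblast-like and 90.1 and 106 CPM in melanocyte-like cells. Cd59a was at 9.10 and 12.3 CPM and Cd46 at 8.99 and 5.90 CPM in keratinocyte-like cells, and Susd4 at 53.8 and 51.7 CPM in hair matrix-like cells.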

How the data were processed

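Whole skin of 2 pools of 15 mice (control and TP) was profiled, 1 library each. Per the labels and the study's methods, the authors used Cell Ranger 8.0.1 with the mm10 reference, and the deposited values are UMI counts per gene and barcode, not normalized. Here, barcodes were kept if they held 200 to 8000 genes and if mitochondrial genes gave no more than 10% of UMIs, and 7.5% of barcodes were removed as doublets by a procedure rewritten after DoubletFinder. Of 45709 control and 25931 TP barcodes, 3465 and 5871 exceeded the mitochondrial limit. Seurat 5.3.0 gave log normalization, reciprocal PCA integration (2000 features, 30 components) and Louvain clusters at resolution 1. Fibroblast and immune clusters were clustered again with leidenalg 0.10.2 at resolutions of 0.3 and 1, and endothelial and contractile clusters at 0.5. Clusters took a name from fixed markers at a score of at least 1.2 and a margin of 0.3; these limits and resolutions were chosen with the clusters in view, and 16918 control and 2992 TP cells stayed unnamed. No complement gene was a marker or a clustering feature.

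UMIs were summed per class. Intervals are exact Poisson for levels, exact conditional binomial for ratios and Clopper-Pearson for shares, at 95%, and cover counting error only. With 1 library per group no test was run. A gene was called where log2 of CPM plus 10 differed by at least 1, among genes with at least 50 UMIs. The calls and intervals were run on simulated Poisson counts, with changes put only into genes of a higher level than the members had over all control cells. That setting holds no spread between cells, animals or libraries and says nothing about it. Thinning drew 1000 UMIs per cell at random. A class needed 50 cells in a library to be ranked; subclusters, shown with their cell numbers, did not. TMM factors came from edgeR 4.0.16, and Python 3.11.15 with numpy 2.4.6 and scipy 1.17.1 ran the rest. The members and lists were chosen with earlier results of these data known. The genes named are the 9 members, other complement list genes with at least 500 UMIs (1 of them is not reported here), the 3 genes most like each member, and marker or leading genes; the copies C1rb, C1s2 and C4a were named for their shared reads. Summed marker levels of the macrophage-like, fibroblast-like and papilla-like classes are given beside their results.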

Additional observations from a re-analysis of the deposited data

Results flagged for a closer look

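The ratio of TP over control lay on opposite sides of 1 in different subclusters of 1 lineage, each with at least 20 cells in both libraries. For C3 it was 2.77 in F3 and 5.14 in F4, and 0.676 in F1 and 0.375 in F2. For C7 it was 1.91 in F1, 2.56 in F3 and 3.62 in F4, and 0.419 in F2. For C1ra it was 0.532 in the Vcan and 1.82 in the Ndnf cluster of dermal papilla-like cells. With 1 library per group these differences between subclusters were not tested.

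The barcodes left out by the limits on genes and mitochondrial content also held complement transcripts. The 9 genes together stood at 35.8 CPM from 378 UMIs in those of TP and 11.3 CPM from 56 UMIs in those of control, a ratio of 3.18 [2.40, 4.29], against 200 and 28.2 CPM in the kept cells.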

How the results depend on the processing

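No paired analysis was possible because each group has 1 library. Shares over all genes are given for the main setting and TMM scaling only, so the counts under the other settings are a description without such a share. Over all kept cells, the count of 5 higher genes became 0 with the mean of ln(counts per 10000 + 1), although the ratios stayed between 1.94 and 12.7, and 0 with the class shares of control. In macrophage-like cells, 3 became 0 with the class taken from markers of single cells, 0 in I2 alone and 0 without I5. It became 2 with doublets kept, 4 with the mean of ln and 4 with the mixed T cell and macrophage subcluster added. C1qa turned to 0.992 and C1qc to 0.844 in I2, and C1qc to 0.888 without I5. In fibroblast-like cells, 2 became 1 with doublets kept, 1 with the mean of ln and 1 with the subcluster shares of control. The settings named for I2, I5, subcluster shares and the alternative shares of cells were chosen after seeing the data, as was leaving out barcodes found in both libraries, which changed no count. Clusters at resolution 2 held the same macrophage-like and fibroblast-like cells and so say nothing about those classes. The TMM factor moved the median log2 difference of all genes from -0.07 to 0.31 in macrophage-like cells and from -0.16 to 0.12 in fibroblast-like cells, and the genes called higher and lower from 356 and 211 to 726 and 60 and from 151 and 258 to 338 and 108, with 4 and 3 complement genes higher. The control values of small subclusters rest on few cells, 14 in I2 and 5 in F5.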

Other observations

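Csmd1, a large membrane regulator of complement, differed in opposite directions between cell classes. It stood at 728 CPM in control and 70.3 CPM in TP in endothelial-like cells (ratio 0.0966 [0.0682, 0.134]), at 11.4 and 136 CPM in melanocyte-like cells (11.9 [7.07, 21.3]) and at 245 and 148 CPM in dermal papilla-like cells (0.603 [0.564, 0.645]). Of the papilla clusters, the Vcan cluster had 200 and 125 CPM (0.624 [0.572, 0.680]) and the Ndnf cluster 299 and 284 CPM (0.952 [0.844, 1.07]). In the fibroblast subcluster F3 it stood at 1017 and 574 CPM (0.565 [0.439, 0.736]). Endothelial-like cells were not the same mixture in both libraries. Subcluster E1, led by Ccl21a and Reln, had 42 control and 98 TP cells, and E2, led by Flt1 and Cd36, had 63 and 41. E3, led by Ccl21a and Mmrn1, had 0 and 47, and E4 had 25 and 11. Neither Csmd1 nor Susd4 was split by these subclusters, and the part of the mixture in their endothelial ratios was not tested. Cd59a, which blocks the membrane attack complex, stood at 14.3 and 41.6 CPM in melanocyte-like cells (2.91 [1.69, 5.19]), and Susd4 at 42.6 and 86.6 CPM in endothelial-like cells (2.03 [1.13, 3.88]).

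In inner root sheath-like cells Clu stood at 12.5 and 42.7 CPM (3.40 [2.88, 4.04]) and Cd55 at 14.0 and 37.8 CPM (2.70 [2.29, 3.19]); both genes were highest among keratinocytes in interfollicular epidermis-like cells, and the part of free RNA in these values was not tested.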
